A study of Mus musculus with 2 samples.

Results

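The metabolic nuclear receptors and their PGC-1 coactivators were followed here as 10 genes chosen by name: Ppara, Ppard, Ppargc1a, Ppargc1b, Esrra, Esrrb, Esrrg, Rxra, Thra and Thrb. All 10 had counts in both libraries, among 16269 annotated genes with counts in either. The libraries are 2 long-read RNA sequencing samples, replicate 1 and replicate 2, of heart tissue from B6CASTF1/J male mice (a cross of the inbred B6 and CAST strains) aged 14 days; they form 1 group with no treatment named, so what can be compared is the genes, their transcript models and the libraries with each other. Both libraries carry 1 donor label, the labels speak of 3 males for each tissue sample, and nothing says whether tissue was pooled or whether the libraries came from separate animals.

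Nuclear receptors are transcription factors that bind DNA and, in most cases, a small lipophilic ligand. PPARα and PPARδ are activated by fatty acids and bind DNA as partners of the retinoid X receptors, of which RXRα is one; in heart muscle they drive genes of fatty acid uptake and oxidation. The estrogen-related receptors ERRα, ERRβ and ERRγ (Esrra, Esrrb, Esrrg) need no known natural hormone and drive genes of mitochondrial respiration, and PGC-1α and PGC-1β (Ppargc1a, Ppargc1b) are coactivators that bind these receptors and raise their activity. The thyroid hormone receptors TRα and TRβ (Thra, Thrb) set the expression of heart myosin and calcium-handling genes after birth. The TRα1 form binds the hormone, whereas the TRα2 form has another C-terminal end and does not.

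The sequences below show the places where forms of Thra and Ppargc1a part, because long reads assign a molecule to one form or the other there. In the Thra lines, lower case is the end of the coding part that the forms share and capitals are the bases that follow it in each. The α1 form runs on within the same exon for 40 codons to its stop (capitals, chr11:98764406-98764528, plus strand, mm10). The α2 form is spliced to a separate last exon, of which the first 123 of 366 coding bases are shown (capitals, chr11:98768157-98768279). The third form enters that exon 117 bases, or 39 codons, further on (capitals, chr11:98768274-98768333).
Thra-202 (alpha1): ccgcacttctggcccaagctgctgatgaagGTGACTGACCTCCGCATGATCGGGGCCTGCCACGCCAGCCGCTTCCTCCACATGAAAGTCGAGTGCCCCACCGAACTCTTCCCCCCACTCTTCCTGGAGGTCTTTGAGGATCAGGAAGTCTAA
Thra-201 (alpha2): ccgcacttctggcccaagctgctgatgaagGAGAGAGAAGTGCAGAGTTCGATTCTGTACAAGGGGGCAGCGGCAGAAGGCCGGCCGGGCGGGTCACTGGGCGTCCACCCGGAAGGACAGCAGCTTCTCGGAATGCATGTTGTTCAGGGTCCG
Thra-203 (second acceptor): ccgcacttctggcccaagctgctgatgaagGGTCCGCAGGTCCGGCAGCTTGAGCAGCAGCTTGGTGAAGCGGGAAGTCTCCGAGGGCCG

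In the first pair of Ppargc1a lines, capitals are the coding bases of alternative first exons and lower case is the start of the exon both are joined to. The proximal first exon codes from chr5:51553735-51553782 and the upstream one from chr5:51567630-51567665, both on the minus strand of mm10. In the last line, capitals are the 31 bases (chr5:51490091-51490121) that an alternative acceptor adds before the seventh exon. They hold the in-frame stop codon TAA from their base 11 on, so this form ends early.
Ppargc1a-203 (proximal first exon): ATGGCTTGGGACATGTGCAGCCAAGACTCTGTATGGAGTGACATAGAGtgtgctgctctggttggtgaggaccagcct
Ppargc1a-202 (upstream first exon): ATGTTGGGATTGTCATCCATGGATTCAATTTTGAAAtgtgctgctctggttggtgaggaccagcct
Ppargc1a-204 (added bases): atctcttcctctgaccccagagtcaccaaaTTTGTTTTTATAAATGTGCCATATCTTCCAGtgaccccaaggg

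The libraries held 1059016 counts (replicate 1) and 1064679 counts (replicate 2) on annotated genes, so that 1 count was worth 0.944 and 0.939 CPM, the usual scaling of counts to library size. Heart muscle markers took 5.26% and 5.28% of these counts. Some other tissue markers moved between the libraries and others moved less. The 8 atrial markers took 0.511% and 0.135%, with all 8 detected. Skeletal muscle markers took 1.224% and 1.265%, most of it on Ckm (12341 and 12685 counts). Fibroblast markers took 0.733% and 0.7%, and endothelial markers 0.158% and 0.143%. The 8 brown fat and adipocyte markers had 529 and 341 counts. Most of these were on Fabp4 (343 and 234), which is also on the endothelial list. Cidea had 120 and 70 counts, Ucp1 32 and 2, and Cfd 23 and 23. The 10 thymus and lymphocyte markers summed to 7 and 91 counts, with Cd8a, Cd8b1 and Dntt at 0 in replicate 1. Long transcripts also had relatively more counts in replicate 2, the median log2 ratio of replicate 2 over replicate 1 being -0.27 in the shortest of 20 length bins (median length 571 bases) and 0.16 in the longest (8323 bases). The part of tissue makeup in the differences between libraries given below was not tested; for length, values with its trend removed stand beside them. Fewer cells of a type and less RNA per cell cannot be told apart in such tissue samples.

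Esrra, for ERRα, had the most counts of the 10 genes and Esrrb, for ERRβ, the fewest. Together the genes summed to 372 (replicate 1) and 384 (replicate 2) counts. Esrra was counted 232 times in replicate 1 and 168 times in replicate 2, Ppargc1a 31 and 55 times, Ppargc1b 26 and 60 times, and Thra 30 and 33 times. Rxra stood at 16 and 17 counts, Esrrg at 15 and 15, and Ppara at 8 and 24. Thrb had 7 and 4 counts, Ppard 4 and 4, and Esrrb 3 and 4. The median detected gene had 13 counts in replicate 1 and 14 in replicate 2, so Thrb, Ppard and Esrrb lay below the middle of the detected genes in both libraries and Ppara in replicate 1. At such counts the interval of counting error is wide: the 7 counts of Thrb allow 2.81 to 14.4 counts and the 4 counts of Ppard allow 1.09 to 10.2 (exact Poisson, 95%).

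Per kilobase of each gene's dominant annotated transcript, Esrra stood first at 84.0 ± 19.3 CPM per kb (SD, n = 2 libraries). Thra followed at 12.1 ± 0.769, Ppargc1b at 11.1 ± 6.15 and Ppargc1a at 6.26 ± 2.45 CPM per kb. Ppara stood at 4.41 ± 3.11 CPM per kb, Rxra at 3.17 ± 0.124, Thrb at 2.95 ± 1.15 and Esrrg at 2.67 ± 0.0101. Ppard had 1.15 ± 0.00434 and Esrrb 0.766 ± 0.152 CPM per kb. The values of the libraries overlapped between each neighbouring pair from Thra to Esrrg in this order, and not between Esrra and Thra, Esrrg and Ppard, or Ppard and Esrrb. The last gap rests on 4 and 4 against 3 and 4 counts. Esrrb had no count on an annotated chain, so the length of its longest annotated transcript (4300 bases) was used. Annotated chains of Ppara, Ppard, Esrrg and Thrb had at most 2 counts in either library, so their lengths and places are weakly set. The SD of Ppard and Esrrg is smaller than their counting error, since the counts in the libraries happened to be equal. Each count is 1 read whatever the transcript's length, so division by length lowers genes with long transcripts. By mean CPM Esrra was also first, but Ppargc1a (40.47) and Ppargc1b (40.45) stood before Thra (29.66). Likewise, Rxra (15.54) stood before Ppara (15.05), and Esrrg (14.13) before Thrb (5.18).

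**Figure D1:**
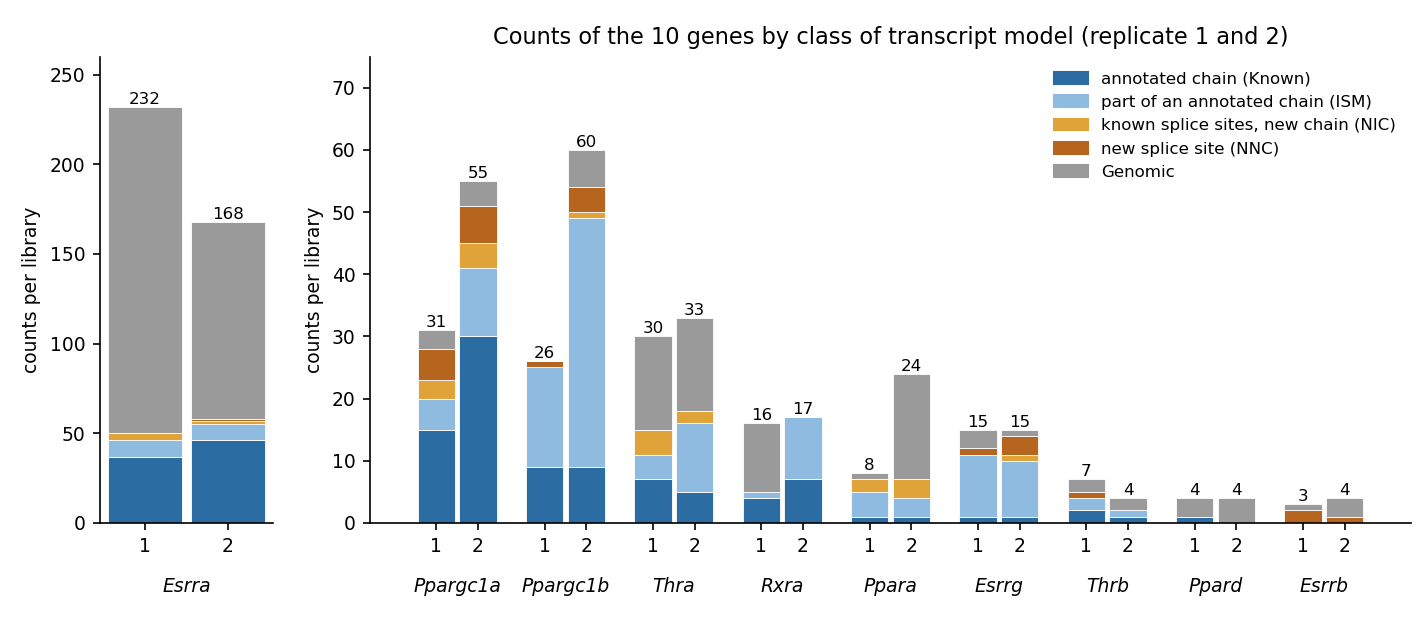
Counts of each gene (vertical axis, counts per library, axes starting at 0; Esrra has its own axis) in replicate 1 and replicate 2, stacked by the authors' class of transcript model; the number above each bar is the gene's total. Genomic models hold 182 of 232 and 110 of 168 counts of Esrra, and Ppargc1b differs mainly in its ISM counts, 16 against 40.

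Each model has a class in the deposited tables. Known models have the whole intron chain of an annotated transcript, ISM models have part of one (a suffix lacks the 5′ end), NIC models join known splice sites in a new way, and NNC models use a splice site not in the annotation. Genomic models were here mostly single-exon models. Some hold intron sequence, as at Thra, and others lie wholly within the last exon, as at Esrra, Rxra and Ppargc1a. The class alone thus does not show that an intron was kept. Over both libraries the 10 genes had 111 distinct models once spliced models with the same introns were merged. Of these, 26 were found in both libraries and 66 rested on 1 count. The annotation holds 61 transcripts of these genes, and 12 of them had counts. Of 79 new spliced models, 15 were found in both libraries. The 10 genes' reads used 124 different splice junctions, 87 in the annotation of the same gene and 37 not. The 37 include junctions of the ISM model of Esrra inside Prdx5, described below. Of the 37, 3 were seen in both libraries: 1 each in Ppargc1a, Esrra and Esrrb.

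Esrra (ENSMUSG00000024955.14, chr19:6910977-6921813, minus strand) owes most of its counts to 1 short single-exon model. This Genomic model spans chr19:6910977-6911049, 73 bases, and had 182 counts in replicate 1 and 110 in replicate 2, 78.5% (95% Clopper-Pearson interval 72.6 to 83.6%) and 65.5% (57.8 to 72.6%) of the gene's counts. The median gene in the test of annotated shares had 0% of its counts on Genomic models in either library. Of 5693 such genes, 42 (0.738%) had a higher Genomic share over both libraries than Esrra. The ends of the model coincide with the annotated 3′ end of Esrra and that of Trmt112, a methyltransferase subunit gene on the opposite strand (24 and 22 counts), and the 73 bases are where the genes overlap tail to tail. The deposited models carry a strand, but the sources used here do not say how the strand of an unspliced read was set, so its assignment to either gene is uncertain there.

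Spliced Esrra models were nearly level between the libraries. They had 50 counts in replicate 1 and 58 in replicate 2, that is 47.2 and 54.5 CPM, and the ratio of replicate 2 to replicate 1 was 1.15 (0.777 to 1.72). On spliced models alone Esrra had 22.7 ± 2.29 CPM per kb (SD, n = 2), still first, before Ppargc1b at 10.3 ± 5.06, Thra at 6.34 ± 0.791 and Ppargc1a at 5.75 ± 2.35. On these models Esrrg (2.05 ± 0.134 CPM per kb) stood before Ppara (1.93 ± 0.00728) and Thrb (1.88 ± 1.14), and Ppard (0.144 ± 0.204) came last. By mean CPM of spliced models, not divided by length, Ppargc1b (37.64) and Ppargc1a (37.17) stood before Thra (15.54).

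The whole annotated chain Esrra-201 had 37 and 46 counts, and 41 of 50 and 49 of 58 spliced counts began with an annotated first junction. The second exon (337 bases, chr19:6920063-6920399) holds the start codon and 325 coding bases. It was included in 42 and 52 counts and skipped in 3 and 1, a skipped share of 6.67% (1.40 to 18.3%) and 1.89% (0.0478 to 10.1%). These intervals overlap. In replicate 2 alone, 3 Esrra counts had exons inside Prdx5, the neighbouring peroxiredoxin gene downstream on the same strand, which had 420 and 364 counts of its own. Of these, 1 was a model of 12 exons that joins both genes. The other 2 were on a model of 4 exons wholly inside Prdx5 (chr19:6906706-6907673), and are among the 58 spliced Esrra counts.

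Esrrg (ENSMUSG00000026610.13, chr1:187608791-188214885, plus strand), for ERRγ, was mostly read from its shared coding exons. The most frequent model, an ISM suffix of 6 exons beginning at the first shared coding exon, had 8 and 5 counts, and Esrrg-201, the 1 annotated transcript seen whole, had 1 and 1. Of spliced counts that passed through the last exon, 9 and 9, a first exon was present in 1 and 3. A further 3 and 2 spliced counts ended before the coding exons.

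Esrrb (ENSMUSG00000021255.17, chr12:86361117-86521628, plus strand), for ERRβ, had no annotated chain. A model of 2 exons with a junction not in the annotation, starting at the gene's annotated 5′ end, had 2 and 1 counts. The remaining 1 and 3 counts were Genomic. With 3 and 4 counts in all, its level was at the floor of 3 counts in replicate 1.

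Both coactivator genes had more counts in replicate 2, with 29.3 and 51.7 CPM for Ppargc1a and 24.6 and 56.4 CPM for Ppargc1b. Whole chains made up a larger part of Ppargc1a counts than of Ppargc1b counts; their 95% intervals, given further on, overlapped in replicate 1 and not in replicate 2. Ppargc1a (ENSMUSG00000029167.13, chr5:51454250-51567726, minus strand) had 15 and 29 counts on Ppargc1a-203, its whole canonical chain of 13 exons and 6464 bases. Its next models were an ISM suffix of 6 exons with 2 and 6 counts, a Genomic model in the last exon with 3 and 4, and a 14-exon model with 2 and 2.

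The first exon of Ppargc1a was mainly the proximal one shown above, with 22 counts in replicate 1 and 35 in replicate 2. The upstream exon, whose start lies 13804 bases further 5′, had 1 and 5 counts, which is 4.35% (0.110 to 21.9%) and 12.5% (4.19 to 26.8%) of counts on either exon. The intervals overlap. Among the upstream counts, 1 and 3 used the annotated end of that exon. In both libraries the form with the proximal first exon was the more frequent.

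The acceptor that adds the 31 bases with the early stop was used in 1 of 24 and 1 of 41 counts that crossed that intron, 4.17% (0.105 to 21.1%) and 2.44% (0.0617 to 12.9%). In replicate 2 the molecule was Ppargc1a-204, which GENCODE M21 types as a nonsense-mediated decay transcript, starting in the upstream exon. An intron inside the last exon, which the annotation does not have, was removed in 3 and 4 counts. Its junction was the 1 unannotated junction of Ppargc1a found in both libraries. Another 24 and 46 spliced counts entered the last exon and did not remove this intron. They include models that end inside it, at chr5:51456877 in each library and Ppargc1a-204 in replicate 2, and models that end at its acceptor (chr5:51455226). The counts that kept the intron whole and read past it were therefore fewer. In replicate 1 a single count ran past the annotated 3′ end into distant exons.

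Ppargc1b (ENSMUSG00000033871.14, chr18:61298136-61400431, minus strand) was read whole less often. The annotated chain Ppargc1b-202, of 12 exons, had 9 counts in each library. The most frequent model was an ISM suffix of 8 exons that begins in the fifth exon, with 11 counts in replicate 1 and 31 in replicate 2. A shorter suffix of 5 exons had 2 and 4 counts. The first exon was present in 10 of 26 and 13 of 54 spliced counts, whereas the last annotated junction was present in 25 and 53. Replicate 2 had more counts than replicate 1 over the 3′ part of the gene, and the same number on the whole chain. A Genomic model with 6 counts, in replicate 2 alone, abutted Mir378a, a microRNA gene within an intron of Ppargc1b.

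Thra (ENSMUSG00000058756.13, chr11:98740638-98769006, plus strand) had 30 and 33 counts, or 28.3 and 31.0 CPM, and the libraries lay within counting error of each other. Every spliced Thra model went on to the α2 last exon. Spliced models that reached the α2 last exon had 15 and 18 counts, and models of any class that reached into the α1 last exon past the shared part had 0 and 0. A count of 0 of 15 and of 18 allows an α1 share of up to 20.0% and 16.7% (3 counts of the total). With unspliced models included, the α2 last exon had 30 and 28 counts, for which the limits are 10.0% and 10.7%, but 15 and 10 of these counts are the unspliced ones described below. With no α1 count in either library, Fisher's exact test can only give 1 and compares nothing. The α1 form was thus not detected at this depth, which does not show that it was absent.

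Within the α2 exon both acceptors shown above were used. The first was used in 10 and 16 counts and the second, 117 bases on, in 5 and 2, a share of 33.3% (11.8 to 61.6%) and 11.1% (1.37 to 34.7%) for the second, with intervals that overlap. The most frequent spliced models were Thra-201, the annotated α2 chain, with 6 and 5 counts, and a suffix of 4 exons with 1 and 4. A NIC model that joins the first exon of Thra-201 to the second acceptor had 3 and 1 counts, and Thra-203 itself had 1 and 0.

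Single-exon Genomic models took another 15 counts of Thra in each library. In replicate 1 all 15 were on a model at chr11:98766578-98769006, which holds intron sequence and the whole α2 last exon, and in replicate 2 they were on 1 model with 10 counts (chr11:98767932-98769006) and 1 with 5 (chr11:98766449-98767932). The last 1075 bases of Thra overlap Nr1d1, which codes for the clock receptor REV-ERBα on the opposite strand and had 22 and 21 counts. As at Esrra, the assignment of unspliced reads in the overlap to Thra or to Nr1d1 is uncertain.

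**Figure D2:**
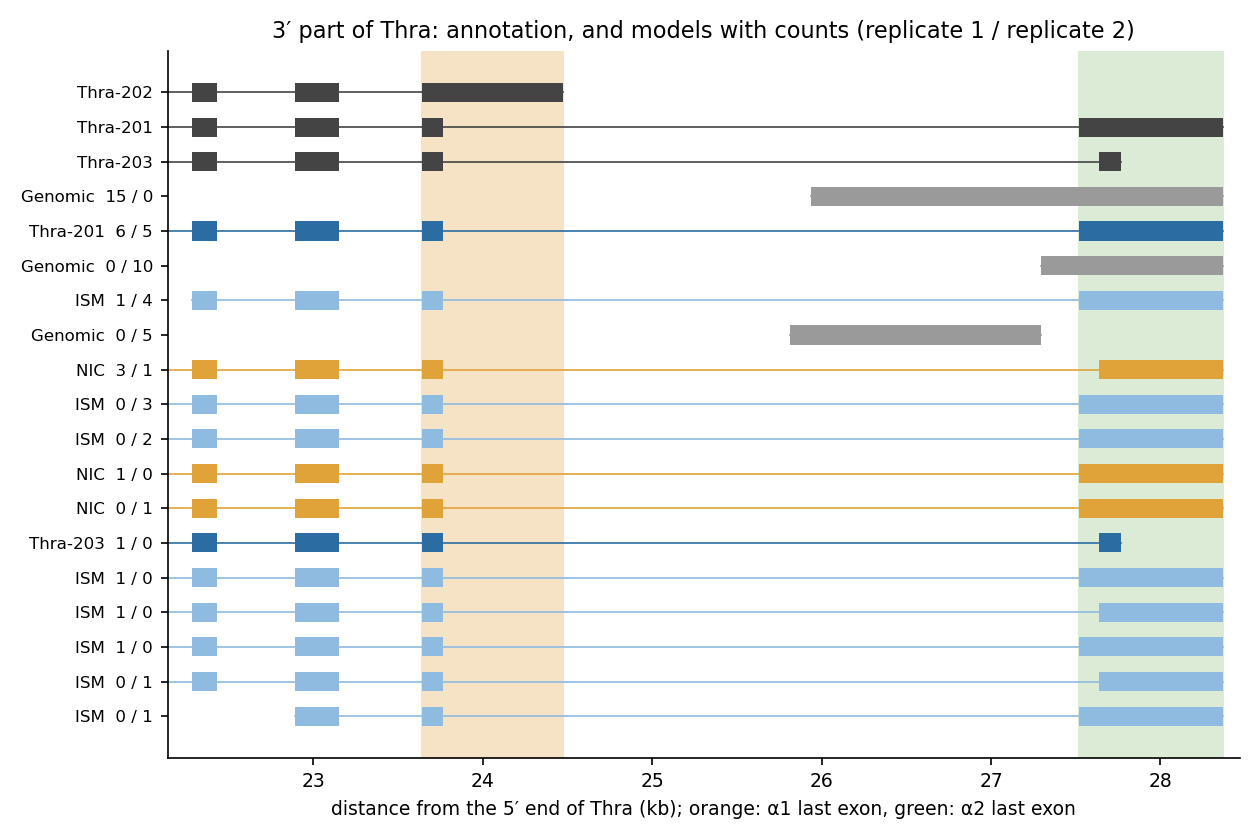
Annotated Thra transcripts (dark) and all models with counts in the 3′ part of the gene, by distance from its 5′ end (horizontal axis, kb); boxes are exons, and the numbers are counts in replicate 1 and replicate 2. No model extends into the α1-specific part of the orange region, and all spliced models join the green α2 exon at 1 of 2 acceptors.

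Thrb (ENSMUSG00000021779.17, chr14:17660261-18038090, plus strand) had 7 and 4 counts. Spliced models beginning with the β1 first exon had 5 and 1 counts. The first exon of Thrb-202, the β2 form known from the pituitary, had 0 in both libraries. Annotated chains were Thrb-203 with 2 and 0 counts and Thrb-201 with 0 and 1. The depth cannot order the Thrb forms.

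Ppara (ENSMUSG00000022383.13, chr15:85734983-85802819, plus strand) had 8 and 24 counts, or 7.55 and 22.5 CPM, and the gap came from unspliced reads at its 3′ end. Spliced Ppara models had 7 counts in each library. In replicate 2 a Genomic model at chr15:85801748-85805588, which starts in the last exon and passes the annotated end, had 17 counts. In replicate 1 a model that the authors' table lists as a new intergenic gene on the same strand, at chr15:85802819-85806972, had 15 counts; it shares the last annotated base of Ppara and is listed apart from it. RefSeq's Ppara on the same build ends at 85806851. With that model added to Ppara, an alternative chosen after seeing the data, the gene had 23 and 24 counts.

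The spliced Ppara molecules mostly lacked the last exon. The exon before it (448 bases) ran on past its donor site, to an end at about chr15:85798572, in 6 counts of replicate 1 and 4 of replicate 2, while the junction to the last exon was used in 1 and 2. The share running past was 85.7% (42.1 to 99.6%) and 66.7% (22.3 to 95.7%). These shares cover spliced models alone. They leave out the unspliced models given above, with 17 counts in replicate 2 and 15 in replicate 1, at and past the last exon. Whether read length shaped the shares was not tested. Molecules that ran past the donor lack the last 245 of the 1404 coding bases. Ppara-202, the annotated chain, had 1 count in each library, and the leading spliced model, a NIC chain of 7 exons, had 2 and 2.

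**Figure D3:**
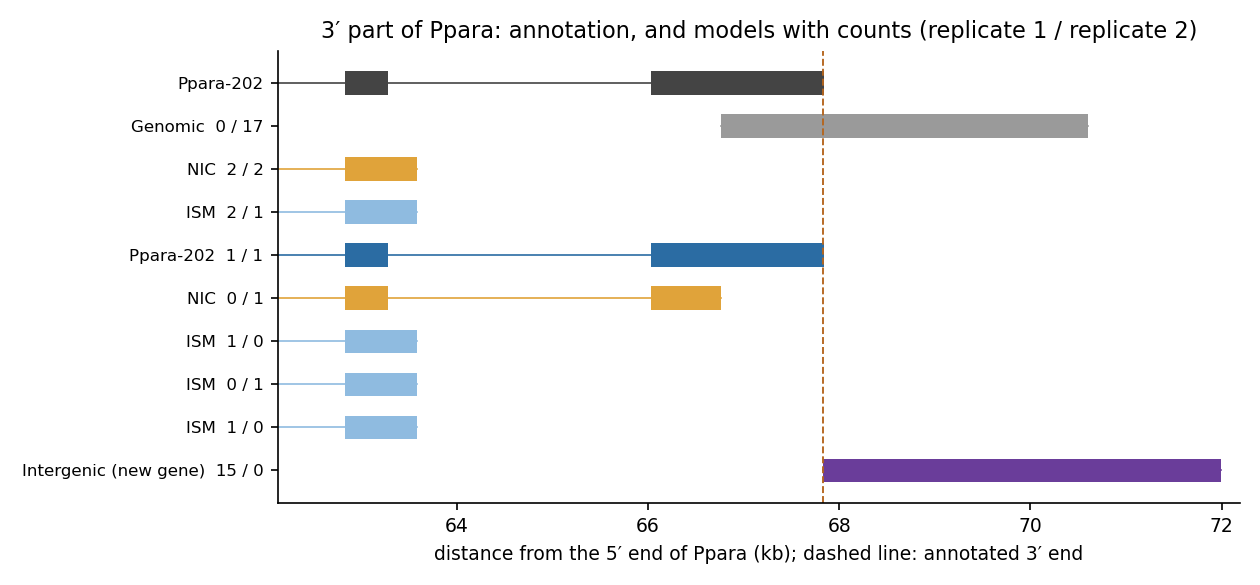
Annotated Ppara-202 (dark) and all models with counts in the 3′ part of Ppara, by distance from the gene's 5′ end (horizontal axis, kb); boxes are exons, and the numbers are counts in replicate 1 and replicate 2. The Genomic model with 17 counts in replicate 2 and the new-gene model with 15 in replicate 1 lie across and beyond the annotated end (dashed line), and 5 spliced models stop short of the last exon.

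Ppard (ENSMUSG00000002250.16, chr17:28232700-28301474, plus strand), for PPARδ, had 4 counts in each library. Single-exon Genomic reads at its 3′ end made up 3 and 4 of them and the whole chain Ppard-201 the other 1 in replicate 1. Rxra (ENSMUSG00000015846.14, chr2:27676440-27762957, plus strand) had 16 and 17 counts, on Rxra-201 in 4 and 7. Reads within its last exon of 3417 bases had 11 counts in replicate 1 and 8 in replicate 2. The authors' table classes them as Genomic in replicate 1 and as ISM in replicate 2, so the Genomic share of Rxra, 68.8% and 0%, follows that class and not the reads' place. All 9 Rxra junctions seen are annotated.

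Between the libraries, Esrra and Ppargc1b passed the test and the other tested members did not. By a two-sided exact binomial test over 10162 genes with at least 10 summed counts and Benjamini-Hochberg adjustment, Esrra was lower in replicate 2 (log2 ratio -0.47, CPM ratio 0.720, 0.587 to 0.882, adjusted p = 0.038) and Ppargc1b higher (log2 ratio 1.17, CPM ratio 2.29, 1.43 to 3.79, adjusted p = 0.0144). That is 2 of 8 tested members, 1 in each direction, where 3.26% of all tested genes were called, 1.6% higher in replicate 2 and 1.65% higher in replicate 1. The median log2 ratio was 0.10 over the tested members and 0.08 over all tested genes. With TMM scaling the calls over all genes split 92 higher in replicate 2 and 241 higher in replicate 1, against 163 and 168 here. The binomial test holds counting error alone and compares these libraries. For edgeR's exact test the common dispersion was estimated from the same libraries, taken as replicates of each other. The differences under test are thus part of that dispersion, which lowers the number of calls. It called neither gene and 0.216% of all genes, and is no separate check on the binomial calls.

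Neither call held on every kind of model. Without Genomic models 0 of 7 tested members and 3.57% of all genes were called; Esrra had a log2 ratio of 0.20, the opposite sign (adjusted p = 0.912), and Ppargc1b one of 1.02 (adjusted p = 0.0612, binomial test). On Known models alone 0 of 5 tested members and 3.19% of all genes were called, and Ppargc1b was level, with 9 counts in each library and a log2 ratio of -0.0025. With the trend of length removed, which called 2.1% of all genes, Esrra was past the threshold (adjusted p = 0.00969) and Ppargc1b was not, at a log2 ratio of 1.02 (adjusted p = 0.0692, same binomial test). The length used for Esrra was that of Esrra-201, 2242 bases, whereas most of its counts lay on the model of 73 bases. The correction therefore does not match the reads counted for Esrra.

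Ppargc1a had a CPM ratio of 1.77 (1.12 to 2.84, adjusted p = 0.205) and Ppara one of 2.98 (1.30 to 7.68, adjusted p = 0.143) by the same binomial test. Neither passed the threshold, and with so few counts that does not show equal levels. Thra had a ratio of 1.09 (0.647 to 1.86), Rxra of 1.06 (0.502 to 2.24), Esrrg of 0.995 (0.453 to 2.18) and Thrb of 0.568 (0.122 to 2.24), each with an interval that includes 1. Ppard and Esrrb had too few counts for the test.

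**Figure D4:**
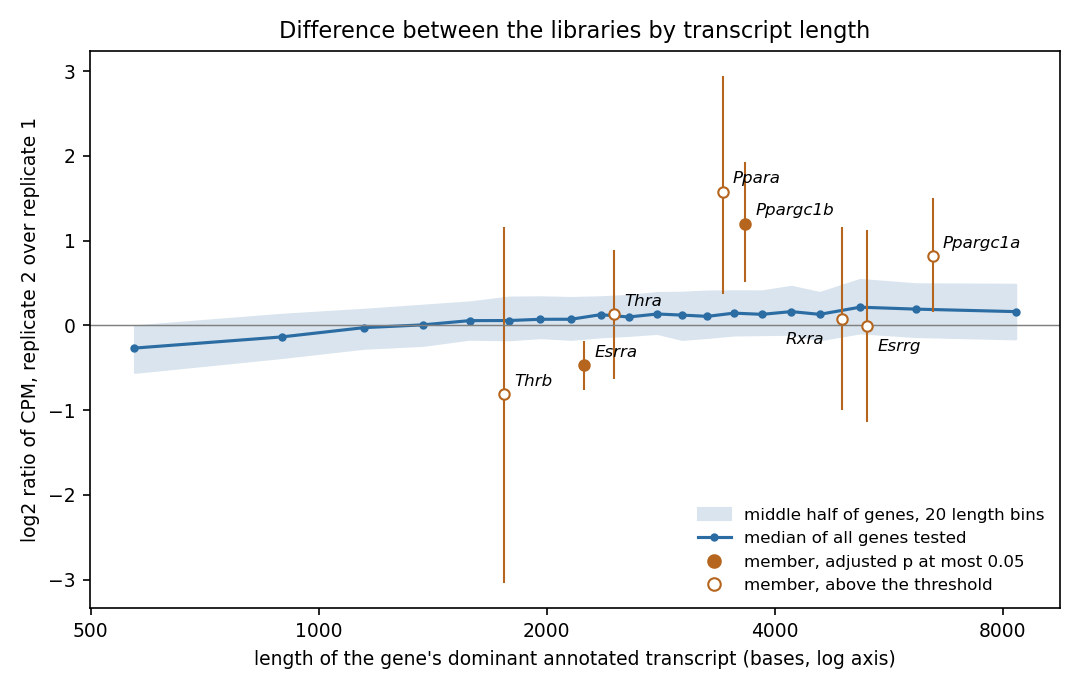
Log2 ratio of CPM, replicate 2 over replicate 1 (vertical axis), by length of the dominant annotated transcript (horizontal axis, bases, log scale); the line and band are the median and middle 50% of all tested genes in 20 length bins, and points are the 8 tested members as plain CPM ratios with 95% intervals of counting error. The interval of Esrra lies below the line and those of Ppargc1b and Ppara above it; those of Ppargc1a, Thra, Thrb, Rxra and Esrrg cross it.

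The share of counts on Known models was low for these genes beside others. It was 16.0% (11.5 to 21.3%) and 27.4% (20.8 to 34.8%) for Esrra, 23.3% (9.93 to 42.3%) and 15.2% (5.11 to 31.9%) for Thra, 34.6% (17.2 to 55.7%) and 15% (7.10 to 26.6%) for Ppargc1b, and 48.4% (30.2 to 66.9%) and 54.5% (40.6 to 68.0%) for Ppargc1a. The median over the 5693 genes with at least 20 counts in each library was 84.2% and 84.8%. Between the libraries, 0 of these 4 members passed Fisher's exact test with Benjamini-Hochberg adjustment, where 0.193% of genes did. At an unadjusted p under 0.05 in Fisher's exact test, 2 did, against 4.92% of all genes: Esrra (exact p = 0.00606, adjusted p = 0.599) and Ppargc1b (exact p = 0.0487, adjusted p = 1).

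Other nuclear receptors were measured beside the 10 genes. Of 34 listed, 26 were detected and 18 tested, and 1 passed the binomial test: Nr4a1, an immediate early receptor gene, with 8 and 60 counts, was higher in replicate 2 (log2 ratio 2.75, adjusted p = 8.67e-09, and 9.12e-05 by edgeR's exact test). Those with the highest mean CPM were Nr2f6 with 265 and 308 counts, Nr1h2 (the oxysterol receptor LXRβ) with 115 and 114, Rxrb with 101 and 82 and Rxrg with 77 and 67. Rxrb and Rxrg code for the other retinoid X receptors. Not detected were Esr1, Esr2, Hnf4a, Nr1i2, Nr1i3, Nr2f1, Pgr and Rorb. The median log2 ratio of this list was 0.01, and 3.26% of all tested genes passed the binomial test.

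All 28 listed coregulators and mitochondrial biogenesis factors were detected and 24 tested. None passed the adjusted binomial test or edgeR's exact test, and 4 (16.7%) had an unadjusted binomial p under 0.05, Perm1 among them, against 12.3% of all genes tested. Perm1, a muscle regulator that works with PGC-1 and ERR proteins, had 89 and 134 counts (log2 ratio 0.58, adjusted p = 0.0823). Sirt3, the mitochondrial deacetylase, had 131 and 138 counts, the corepressor deacetylase Hdac3 81 and 108, and Mef2a, a muscle transcription factor, 81 and 102. Over these genes the median log2 ratio was 0.21.

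Of 27 genes known as targets of PPARs 26 were tested, with a median log2 ratio of 0.02. By the binomial test 2 were higher in replicate 1, 3 were higher in replicate 2 and 21 did not pass. Of all tested genes 3.26% passed, a share that is not matched for count. The binomial test passes smaller differences at higher counts. Fabp3, the heart fatty acid binding protein, had 10707 and 9642 counts (log2 ratio -0.16, adjusted p = 1.15e-12). Lpl, lipoprotein lipase, had 2574 and 2983 (log2 ratio 0.21, adjusted p = 1.24e-05), and Pdk4, the kinase that turns off pyruvate dehydrogenase, had 640 and 924 (log2 ratio 0.52, adjusted p = 2.79e-10). The β-oxidation genes Hadhb, with 4990 and 4972 counts, and Acadvl, with 3463 and 3506, did not pass. With the length trend removed, the binomial test called 1 higher in replicate 1 and 2 in replicate 2, and 2.1% of all tested genes. Pdk4 was still past the threshold (log2 ratio 0.38, adjusted p = 3.47e-05), and Fabp3 (adjusted p = 1) and Lpl (log2 ratio 0.05, adjusted p = 0.788) were not. Fgf21 was not detected.

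Of 20 ERR and PGC-1 target genes 19 were tested, 4 were higher in each library, and the median log2 ratio was 0.07. Of all tested genes 3.26% were called, a share not matched for count. The median detected gene had 13 and 14 counts, far fewer than the genes named here. Slc25a4, the ADP/ATP carrier of muscle, had 27315 and 24803 counts (log2 ratio -0.15, adjusted p = 3.71e-28). The cytochrome oxidase subunit genes Cox5b, with 1310 and 887 counts, and Cox6a2, with 1382 and 992, were lower in replicate 2 (log2 ratios -0.57 and -0.49). Atp5a1 (7833 and 8459) and Uqcrc1 (7020 and 7756) were higher there, and Atp5b (10775 and 10743) did not pass. With the length trend removed the binomial test called 5 higher in replicate 1 and 1 in replicate 2. All genes called in that setting (2.1% of those tested) split 124 higher in replicate 1 and 89 in replicate 2. Atp5a1 was no longer past the threshold (adjusted p = 1), and Atp5b was lower in replicate 2 (log2 ratio -0.08, adjusted p = 0.0018). Slc25a4, Cox5b, Cox6a2 and Uqcrc1 were called in the same direction as before.

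In the thyroid hormone pathway 21 of 26 genes were detected and 18 tested. Of these, 1 was higher in replicate 1 and 2 in replicate 2, with a median log2 ratio of 0.14, where 3.26% of all tested genes were called. Here too that share is not matched for count. Myh6, the adult heart myosin that the hormone induces, had 22068 and 24632 counts (log2 ratio 0.15), and Atp2a2, the calcium pump SERCA2, 6410 and 7906 (log2 ratio 0.29). Pln, which restrains that pump, had 3002 and 2442 (log2 ratio -0.30). Atp1b1, a sodium pump subunit, had 365 and 403 and did not pass. With the length trend removed Myh6 turned sign and was not past the threshold (log2 ratio -0.03, adjusted p = 0.224), while Atp2a2 (log2 ratio 0.14) and Pln (log2 ratio -0.40) were. The deiodinase genes Dio1, Dio2 and Dio3, whose enzymes activate or inactivate the hormone, and the potassium channel genes Kcnd2 and Kcnd3 were not detected. With edgeR's exact test 0 of the 26, 19 and 18 tested genes of these 3 target lists passed, against 22 of all genes. As said above, its dispersion includes the differences between these libraries, so few calls are possible.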

How the data were processed

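The deposited tables hold the authors' whole-number read counts per transcript model, not normalized, with the models' classes, exon numbers and lengths, per the file headers; assembly mm10 and annotation GENCODE M21 come from the files' notes. Sources used here name no aligner, annotation tool, filter or instrument. The labels give 2 µg of RNA per library and number the tissue samples differently, yet describe both libraries with the same tissue sample and cDNAs. Counts were summed per gene. Totals of all counts were 1107678 and 1110707, of which 95.6% and 95.9% lay on annotated genes; new genes (2.68% and 2.89%) and spike-ins (1.72% and 1.25%) were left out. CPM rests on annotated-gene totals, log2 ratios on CPM plus 1. Reads carry no molecular identifiers, so intervals, floors (3 counts) and p-values cover counting error only, and SDs measure a spread between 2 samples that can be technical. Genes with at least 10 summed counts entered a two-sided exact binomial test with Benjamini-Hochberg adjustment (threshold 0.05); annotated shares used Fisher's exact test with at least 20 counts in each library. Spliced models were merged between libraries by their introns, and exons and sequences taken from GENCODE M21. Members, the 12 lists and the tests were chosen with earlier results of these data known. The text names all members, up to 4 leading models of each, and, of the other lists of nuclear receptors, coregulators and targets, the 4 highest genes and up to 3 of smallest p past the threshold. The 7 marker lists give sums; genes named from them, models resting on few counts and neighbouring genes were singled out after their values were seen. Some members past the threshold in the target lists are not named, and 1 listed gene is not reported here. Alternatives, 29 planned and 4 added, were TMM (edgeR 4.0.16), DESeq2 1.42.0 size factors, count minimums, classes of models, removal of the length trend (lowess, span 0.3), edgeR's exact test with its common dispersion (biological coefficient of variation 0.124) and added intergenic models. Scripts were tested on simulated data and used Python 3.11.15, SciPy 1.17.1 and R 4.3.3. No protein sequences or genome sequence were used here.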

Additional observations from a re-analysis of the deposited data

Results flagged for a closer look

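Counts on new genes on the opposite strand of the members, which no comparison above uses, exceeded the floor of 3 counts in both libraries at 4 of the 10 genes. Within Ppargc1a such models had 24 counts in replicate 1 and 66 in replicate 2, led by 1 model in an intron at chr5:51531792-51534528 with 10 and 26 counts. Within Ppargc1b they had 11 and 13 counts, and within Esrrg 5 and 21, on 4 and 10 models. Within Thrb they had 22 and 24 counts, of which 21 and 22 lay on a single-exon model over the 3′ end of the gene (chr14:18034396-18035692 in replicate 1), more than the 7 and 4 counts of Thrb itself. The other members had at most 4 such counts in either library. The share of all genes with such counts was not computed, so 4 of 10 has no background. The 4 genes span 102296 to 606095 bases. Esrrb spans 160512 bases and had 0 and 3 such counts, and the remaining members span at most 86518. The strand is that of the deposited models, and how it was set for unspliced reads is not stated in the sources used here.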

How the results depend on the processing

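The count of all genes differing between the libraries was 331, and 213 with the length trend removed and 22 by edgeR's exact test; with no minimum count it was 269 and with Genomic models left out 346. The count of members called was 2, and 1 with no minimum count, 1 with the length trend removed, and 0 with Known models alone, with Genomic models left out and by edgeR's exact test. Fewer members were tested on Known models (5) and without Genomic models (7). Genes whose annotated share differed numbered 11, and 106 with Known and ISM models set against all others and 39 with Genomic models left out. The α2 share of Thra was 100% throughout, as it had to be with no α1 count in either library, so its alternatives say nothing about stability. The sign turned for Esrra on Known models (0.31) and without Genomic models (0.20), for Ppara without Genomic models (-0.0086), for Ppargc1b on Known models (-0.0025), for Esrrg without Genomic models (0.20), for Thra on Known models (-0.43), and for Rxra with TMM (-0.0018), with the length trend removed (-0.099) and by edgeR (-0.0020); the cause was not tested. No paired analysis was possible because there is 1 group of 2 libraries. Below about 20 counts, as for Ppara, Ppard, Esrrb, Esrrg, Rxra and Thrb, depth leaves the order of transcript forms unresolved.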
